A study of Mus musculus with 2 samples.

Results

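The genes described here are 8 genes of the type-1 lymphocyte program: the effector genes Ifng and Xcl1, the transcription factor genes Tbx21 and Eomes, and the receptor genes Il12rb1, Il12rb2, Il18r1 and Il18rap. They were taken by name from a list, and are 8 of the 33696 genes in the deposited count matrices. All 8 were found in both libraries and are followed here through γδ T cells, CD4 and CD8 T cells and natural killer (NK) cells of the mouse lung. The data are droplet-based single-cell RNA sequencing of live cells sorted from the lungs of adult mice. One library carries the label GFI1 KO and the other GFI1 WT, and each is 1 sample. Per the study's methods, the GFI1 KO line is not the Cre-driven conditional one and the mice were kept on the C57BL6/J background. Every cell type under the KO label thus carries the allele, and the labels name no treatment. GFI1 is a transcriptional repressor needed for normal neutrophil and lymphocyte development. With 1 library per label, no test, p-value or standard error was computed, and a difference between genotypes and a difference between mice or libraries cannot be told apart. Further libraries that the study's methods describe were not analysed here.

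Interferon-γ, encoded by Ifng, is the defining cytokine of type-1 immunity, and XCL1 is a chemokine released by activated NK and CD8 T cells that acts on XCR1-bearing dendritic cells. T-bet (Tbx21) and Eomesodermin (Eomes) are related T-box transcription factors that open Ifng and cytotoxic genes in NK, CD8, CD4 and some γδ T cells. Interleukin 12 (IL-12) is sensed by a receptor made of IL-12Rβ1, which is shared with the interleukin 23 (IL-23) receptor, and IL-12Rβ2, which signals through STAT4. Interleukin 18 (IL-18) is sensed by a receptor of the binding chain IL-18R1 and the accessory chain IL-18RAP, which signals through MYD88. IL-12 and IL-18 together are known for driving interferon-γ release from NK cells and T cells without antigen. In the lung, γδ T cells fall into interleukin 17 (IL-17) producers, which use MAF, and interferon-γ producers, which use T-bet.

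Promoter stretches of 3 of the genes are given here because they hold letters of motifs known for the factors of the pathway; the sequences are from RefSeq, on the build GRCm38.p6, and the table held 9 promoters of 7 of the 8 genes (Il12rb1 had none in it). The stretch of the Xcl1 promoter lies from 200 to 80 bases before the start site, at chr1:164935602-164935722 on the minus strand. The stretch of the Il12rb2 promoter lies from 150 to 90 bases before the start site, at chr6:67376278-67376338 on the minus strand. The stretch of the Ifng promoter lies from 250 to 200 bases before the start site, at chr10:118440796-118440846 on the plus strand. Each is written 5′ to 3′ on the gene's strand. Capitals mark the T-box letters GGTGTG in Xcl1, of which the second match is on the opposite strand, and the STAT letters TTCNNNGAA in Il12rb2 and Ifng.
Xcl1: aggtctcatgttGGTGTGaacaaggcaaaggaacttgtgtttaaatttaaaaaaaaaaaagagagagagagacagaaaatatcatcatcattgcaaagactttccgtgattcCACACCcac
Il12rb2: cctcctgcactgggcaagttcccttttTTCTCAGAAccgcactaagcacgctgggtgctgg
Ifng: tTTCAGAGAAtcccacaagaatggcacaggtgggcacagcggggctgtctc

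Both strands of the 250 bases before each start site were searched. GGTGTG was in 2 of the 9 promoters, those of Xcl1 and of 1 of the start sites of Il18r1, against 16.3% of all 32841 promoters in the table. TTCNNNGAA was in 3 of the 9, those of Ifng, Il12rb2 and another start site of Il18r1, against 7.02% of all promoters. AAATCA, the core letters of the GFI1 site, was in 0 of the 9, against 12.4% of all promoters. A match is a run of letters and was not tested as a binding site.

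UMIs (unique molecular identifiers, 1 for each captured RNA molecule) were summed over genes, which gave 116825535 in 10700 cells labelled GFI1 KO and 162599284 in 19515 cells labelled GFI1 WT. The median depth of the cells kept was 11076 and 6217 UMIs. Gfi1 gave 340 UMIs in the KO-labelled library, 3.60 CPM (UMIs of the gene per 1000000 UMIs of its class or library; 95% interval 3.23 to 4.002), and 470 UMIs in the WT-labelled library, 3.47 CPM (3.16 to 3.79). These levels overlap, and they pool all cells of libraries of unlike makeup, with 4334 and 228 monocyte-like and 9 and 1514 neutrophil-like cells. Summed in this way, Gfi1 RNA gave no check of the labels. The libraries shared 74 cell barcodes, of which 4 and 13 fell in the classes described here, and leaving those cells out moved no ratio of the 8 genes beyond its interval. All intervals given are exact 95% intervals and cover counting error only.

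Clusters of cells were named from marker genes. NK-like cells were 218 in the KO-labelled library and 2036 in the WT-labelled library, and 84.9% and 86.8% of them had a UMI of Ncr1, the NK receptor gene, against 0.5% and 0.3% with a UMI of Cd3e. The antibody tag for CD335, the protein of Ncr1, was on 6.42% and 1.96% of them. It was on 67.2% and 61.1% of endothelial-like cells, so that tag gave no check of the NK name. CD4-like cells were 202 and 937, and 94.6% and 96.6% of them carried the CD4 antibody tag. CD8-like cells were 388 and 1200, and 95.1% and 95.8% of them carried the CD8a tag. Trdc-positive cells were 70 and 83: the cells of the γδ-like clusters with a UMI of Trdc, the γδ receptor constant-region gene, out of 161 and 232 cells in those clusters. Of the Trdc-positive cells, 4.29% and 9.64% carried the CD8a tag and 0% and 2.41% the CD4 tag. The tag for NK1.1, another NK receptor, was on 1.43% and 7.23% of them. The median depth in all-gene UMIs was 5680 and 6303 in Trdc-positive cells, 5022 and 5461 in CD4-like cells, 7334.5 and 6256 in CD8-like cells, and 5512 and 4177 in NK-like cells.

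The 8 genes moved differently between classes, but in a similar direction in CD4-like and CD8-like cells. A gene counted as past 2-fold when its CPM differed at least 2-fold between labels and both libraries together held at least 30 of its UMIs. In Trdc-positive cells 6 of the 8 had enough UMIs, and 3 were lower and 1 higher under the KO label, while of all genes there 12.8% were lower and 12.1% higher. In CD4-like cells 5 had enough UMIs and 4 were higher and 0 lower, beside 4.48% of all genes higher and 4.8% lower. In CD8-like cells 7 had enough UMIs and 4 were higher and 0 lower, beside 2.94% of all genes higher and 3.45% lower. In NK-like cells all 8 had enough UMIs and 0 were past 2-fold, beside 3.86% of all genes higher and 7.34% lower. With 0.5 UMIs added to each count, the median log2 ratio of the genes with enough UMIs was -1.34 in Trdc-positive cells, 1.96 in CD4-like cells, 1.08 in CD8-like cells and -0.15 in NK-like cells, while that of all genes lay between -0.05 and 0.00.

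**Figure D1:**
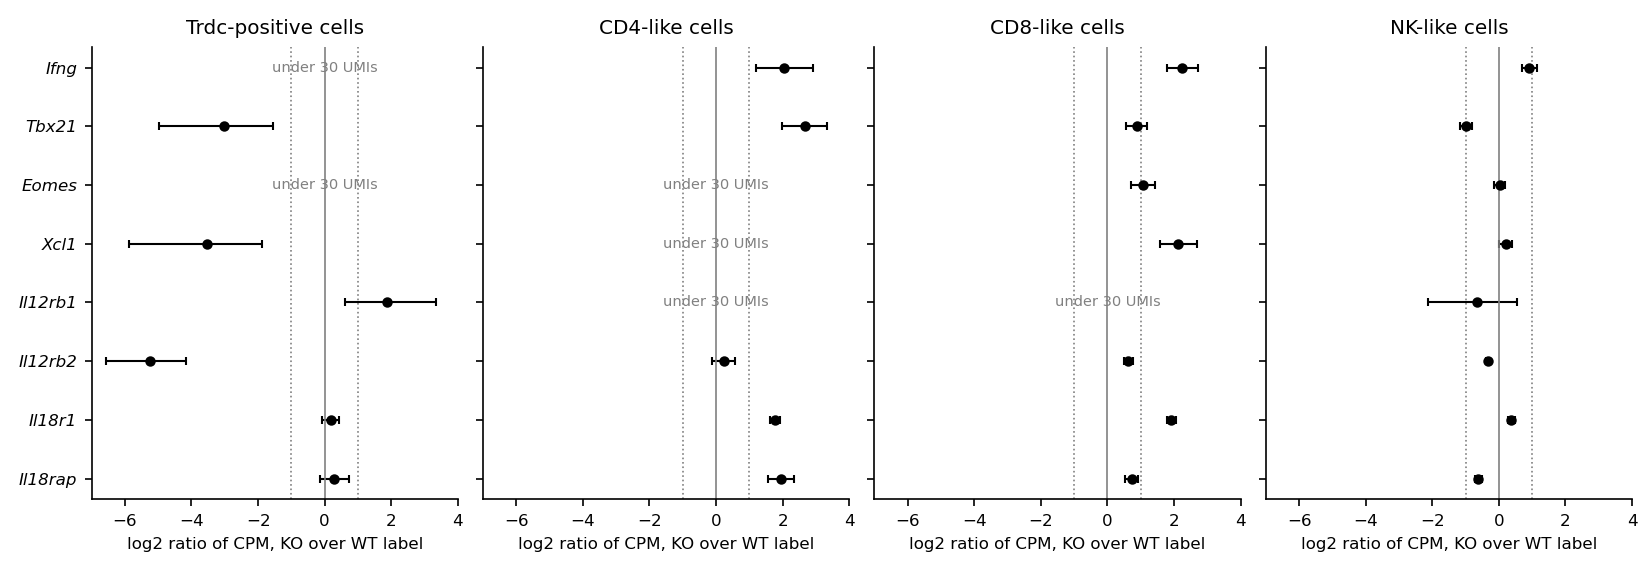
Log2 ratio of CPM under the KO label over the WT label (x axis) for each of the 8 genes (y axis) in Trdc-positive, CD4-like, CD8-like and NK-like cells; points are ratios, bars exact 95% intervals (counting error only), the solid line marks no difference and dotted lines 2-fold. Il12rb2 sits at -5.24 in Trdc-positive cells and -0.33 in NK-like cells, while Il18r1 lies to the right of the solid line in every class, with an interval that holds no difference in Trdc-positive cells.

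In Trdc-positive cells, 5 genes of the interferon-γ side of the program were at low levels under the KO label: Tbx21, Xcl1 and Il12rb2 were past 2-fold lower, and Ifng and Eomes had under 30 UMIs but pointed the same way. Tbx21 gave 4 UMIs under the KO label and 36 under the WT label, levels of 10.6 CPM (2.89 to 27.2) and 86.0 CPM (60.2 to 119), which is a ratio of 0.12 (0.03 to 0.34). Xcl1 gave 3 and 39 UMIs, 7.97 and 93.2 CPM, a ratio of 0.09 (0.02 to 0.27). In both genes the interval under the KO label lay below that under the WT label. Under the WT label, 5 cells gave 47.2% of the Tbx21 UMIs and 53.8% of the Xcl1 UMIs, which these intervals do not allow for. For Ifng and Eomes under that label the shares were 66.7% and 57.1%.

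Ifng gave 3 UMIs in the KO-labelled library, all from 1 of the 70 cells, and 24 UMIs in the WT-labelled library from 12 of 83 cells. The levels were 7.97 CPM (1.64 to 23.3) and 57.3 CPM (36.7 to 85.3). Eomes gave 0 UMIs under the KO label, a level of up to 7.97 CPM at 3 counts, and 28 UMIs under the WT label, 66.9 CPM, so that it was at least 8.40-fold lower at that limit, and the upper end of the exact interval of its ratio was 0.157. The IL-12 receptor gene Il12rb2 gave 7 UMIs under the KO label and 294 under the WT label, 18.6 CPM (7.48 to 38.3) and 702 CPM (624 to 788), which is a ratio of 0.03 (0.01 to 0.06). A UMI of it was seen in 5 of 70 cells (7.14%) and 49 of 83 cells (59.0%). The range over all alternative definitions of these cells was -7.59 to -2.67 on the log2 scale.

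The other IL-12 receptor chain went the other way. Il12rb1 gave 23 UMIs under the KO label and 7 under the WT label, 61.1 CPM (38.7 to 91.7) and 16.7 CPM (6.72 to 34.5), which is a ratio of 3.65 (1.52 to 10.1). IL-12Rβ1 is also the partner chain of the IL-23 receptor, which IL-17-producing γδ T cells carry.

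Over the whole class, the IL-18 receptor genes showed no such difference. Il18r1 gave 271 and 266 UMIs, or 719.7 and 636 CPM, a ratio of 1.13 (0.95 to 1.35), and a UMI of it was seen in 81.4% and 61.4% of cells. Il18rap gave 95 and 86 UMIs, 252 and 205 CPM, a ratio of 1.23 (0.91 to 1.66). Both chains were seen in the same cell in 41.4% of Trdc-positive cells under the KO label and 37.3% under the WT label. Both intervals of the ratio hold 1 and lie below 2-fold.

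The Trdc-positive cells of the libraries came from different clusters. Under the KO label 61 of the 70 cells lay in T cluster 8, led by Il17a and Tmeff2, 5 in T cluster 11, led by Il23r and Pxdc1, and 4 in T cluster 6, led by Klra1 and Trgc4. Under the WT label 66 of the 83 cells lay in cluster 6, 16 in cluster 11 and 1 in cluster 8. No cluster held at least 10 Trdc-positive cells of both libraries, so the ratio could not be separated from the makeup of the class.

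In cluster 6 under the WT label, the levels were 69.1 CPM for Ifng, 94.96 for Tbx21, 77.7 for Eomes, 112 for Xcl1 and 817 for Il12rb2. In cluster 8 under the KO label, Ifng and Tbx21 were each at 8.96 CPM and Il12rb2 at 2.99, with 0 UMIs of Eomes and Xcl1. All 23 UMIs of Il12rb1 under the KO label lay in cluster 8, in 19 of its 61 cells. Il18r1 was at 689.5 CPM (603 to 784) in cluster 8 under the KO label. In cluster 6 under the WT label it was at 452 CPM (384 to 528). The 4 cells of cluster 6 under the KO label had 0 UMIs of Ifng and Eomes, 1 of Tbx21, 3 of Xcl1 and 6 of Il12rb2, the last at 261 CPM against 817 CPM under the WT label. Il18r1 was thus present in each of these clusters, and in cluster 11 it was at 1346 and 1510 CPM.

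Among factors and cytokines of other programs in the Trdc-positive cells, Maf and Il17a differed between labels. Maf, a factor gene of IL-17 producers, was at 704 CPM in the KO-labelled and 201 CPM in the WT-labelled library, and Il17a at 1378 and 78.9 CPM. Gata3, the factor gene of type-2 cells, was at 82.3 and 102.7 CPM, and Il4 gave 0 and 2 UMIs. Foxp3, Il5 and Il13 had 0 UMIs under both labels.

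The γδ-like cells without a Trdc UMI, 91 and 149 cells, were not part of the class and gave a second set of values from the same libraries. Tbx21 was at 36.3 and 89.9 CPM there, a ratio of 0.40 (0.21 to 0.72). Xcl1 was at 20.7 and 120.4 CPM, and Il12rb2 at 101 and 566 CPM. Ifng was at 57.1 and 62.2 CPM there, close to each other, but its 22 UMIs under the KO label came from 3 cells and its 47 UMIs under the WT label from 24 cells. Eomes gave 0 and 21 UMIs. The low Tbx21, Xcl1 and Il12rb2 levels were thus seen in these cells too, and a low Ifng level was not. An Ifng UMI was seen in 3.30% and 16.1% of these cells. Under the KO label the 14 UMIs of Tbx21 came from 3 cells and the 39 of Il12rb2 from 6. These cells lie in the same clusters of the same libraries, so they are no independent check. The CD4 tag was carried by 8.79% and 12.8% of these cells and the CD8a tag by 6.59% and 17.4%. Il12rb1 gave 10 and 13 UMIs, 25.9 and 17.2 CPM with overlapping intervals, so that its higher level was not shown in these cells. Il18rap was at 202 and 257 CPM, a ratio of 0.79 (0.60 to 1.03). Il18r1 was at 1201 CPM (1094 to 1315) and 914 CPM (847 to 985), so in these cells it was higher under the KO label.

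**Figure D2:**
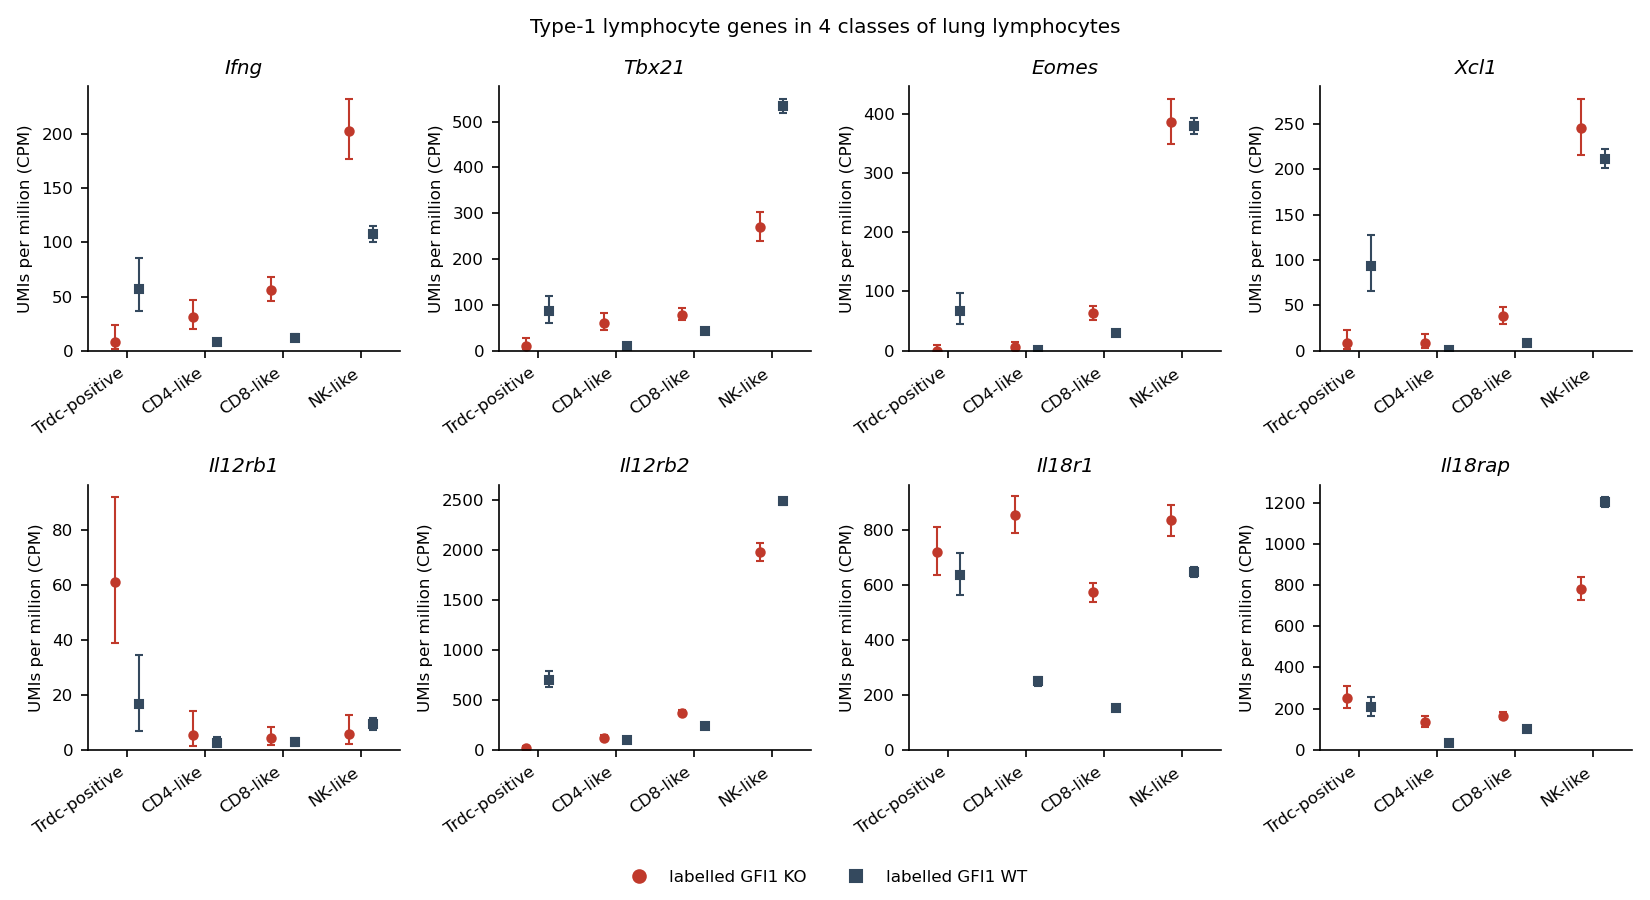
Level of each of the 8 genes in CPM (y axes, from 0, a separate scale for each gene) in Trdc-positive, CD4-like, CD8-like and NK-like cells; red circles are the library labelled GFI1 KO, dark squares that labelled GFI1 WT, and bars exact 95% Poisson intervals (counting error only). NK-like cells are the highest of the 4 classes for Ifng, Tbx21, Eomes, Xcl1 and Il12rb2 under both labels, while Il18r1 in CD4-like and CD8-like cells is higher under the KO label.

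In CD4-like cells, Tbx21, Ifng and both IL-18 receptor genes were higher under the KO label. Tbx21 gave 45 UMIs under the KO label and 36 under the WT label, 61.5 CPM (44.9 to 82.3) and 9.74 CPM (6.82 to 13.5), which is a ratio of 6.32 (3.98 to 10.1). Ifng gave 23 and 28 UMIs, 31.4 and 7.57 CPM, a ratio of 4.15 (2.28 to 7.47), and its UMIs came from 12 of 202 cells and 15 of 937 cells. For both genes the intervals of the levels did not overlap. The UMIs were gathered in few cells, which these intervals do not allow for. Of the Tbx21 UMIs, 57.8% under the KO label and 44.4% under the WT label came from 5 cells. For Ifng the shares were 69.6% and 60.7%.

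Il18r1 gave 625 and 922 UMIs in CD4-like cells, levels of 854 CPM (789 to 924) and 249 CPM (234 to 266), which is a ratio of 3.43 (3.09 to 3.796). A UMI of it was seen in 70.3% and 31.2% of cells, and in 52.1% and 18.5% after each cell was thinned to 1500 UMIs. Il18rap gave 98 and 127 UMIs, 134 and 34.4 CPM, a ratio of 3.90 (2.97 to 5.12). Both chains were seen in the same cell in 19.3% of cells under the KO label and 5.34% under the WT label. Il12rb2 was at 120.3 and 101.7 CPM, a ratio of 1.18 (0.93 to 1.495), and with the cells classed by antibody tags its log2 ratio was -0.45. Il12rb1, Eomes and Xcl1 had at most 13 UMIs over both libraries. In endothelial-like cells, which should lack these genes, a UMI of any of the 8 genes was seen in at most 1.06% of cells.

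The CD4-like cells fell into 2 clusters in different shares. T cluster 1, with 7 of 8 naive T cell markers raised, held 91 cells under the KO label and 729 under the WT label, and T cluster 2, led by Tnfrsf4, Il1rl1, Ctla4 and Foxp3, held 111 and 208. Ifng had 0 UMIs in cluster 1 under both labels, so every Ifng UMI of the CD4-like cells came from cluster 2. There Ifng was at 57.1 and 31.8 CPM, a ratio of 1.80 whose interval, 0.99 to 3.23, holds 1. Tbx21 was at 112 and 37.5 CPM in cluster 2, a ratio of 2.98. Within cluster 2 the differences of both genes were thus smaller than over the class.

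Il18r1 was higher under the KO label in both clusters. In cluster 1 it was at 271 and 82.7 CPM, a ratio of 3.27, and in cluster 2 at 1330.3 and 782 CPM, a ratio of 1.70. Il18rap was at 243 and 142 CPM in cluster 2, a ratio of 1.71, and had 0 and 2 UMIs in cluster 1. Il12rb2 differed in opposite directions. In cluster 1 it was at 18.3 CPM under the KO label, with 6 UMIs all from 1 cell, and at 101.9 CPM under the WT label, while in cluster 2 it was at 203.5 and 101 CPM. In cluster 2 a UMI of Il12rb2 was seen in 16.2% and 12.5% of cells, and 5 cells gave 52.4% and 50.6% of its UMIs.

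Cluster 2 mixes regulatory and other CD4 T cells, so its cells were also split by a UMI of Foxp3, the factor gene of regulatory T cells. In the 88 and 153 cells without one, Tbx21 was at 142 and 53.5 CPM, Il12rb2 at 273 and 120.0 CPM, and Il18r1 at 1384 and 888 CPM. In the 23 and 55 cells with one, Il18r1 was at 1181 and 535 CPM, and Tbx21 had 3 and 0 UMIs. The higher Il18r1 level under the KO label was present on both sides of the split. The Tbx21 level rested on the cells without a Foxp3 UMI.

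In CD8-like cells, Ifng, Xcl1, Il18r1 and Eomes were past 2-fold higher under the KO label, and Tbx21, Il12rb2 and Il18rap were higher by less. Ifng gave 106 UMIs under the KO label and 63 under the WT label, 56.3 CPM (46.1 to 68.1) and 11.8 CPM (9.09 to 15.1), which is a ratio of 4.76 (3.45 to 6.61). Xcl1 gave 72 and 47 UMIs, 38.2 and 8.82 CPM, a ratio of 4.34 (2.96 to 6.40). Eomes gave 119 and 160 UMIs, 63.2 and 30.03 CPM, a ratio of 2.10 (1.65 to 2.69). Tbx21 gave 148 and 228 UMIs, 78.6 and 42.8 CPM, a ratio of 1.84 (1.48 to 2.27). The intervals of the levels did not overlap for any of these 4 genes.

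Among the receptor genes of CD8-like cells, Il18r1 gave 1078 and 805 UMIs, levels of 573 CPM (539 to 608) and 151 CPM (141 to 162), which is a ratio of 3.79 (3.46 to 4.16). Its UMIs were seen in 76.8% and 31.7% of cells, and in 49.3% and 15.8% after thinning. Il18rap was at 166 and 100.2 CPM, a ratio of 1.65 (1.43 to 1.90), and Il12rb2 at 371 and 240.4 CPM, a ratio of 1.54 (1.40 to 1.69). Both IL-18 receptor chains were seen together in 33.2% and 7.92% of cells. Il12rb1 gave 8 and 14 UMIs, too few for a ratio.

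The CD8-like cells also differed in makeup. T cluster 0, led by Ccr9 and Dapl1 with 7 of 8 naive T cell markers raised, held 120 cells under the KO label and 928 under the WT label. T cluster 3, led by Ifngas1, Gzmm and Ly6c2, held 193 and 122. T cluster 5, led by Ccl5, Gzmk and Gzmb, held 69 and 134, and a small cluster led by Ifit1 held 6 and 16. In cluster 5 the CD8a tag was carried by 95.7% and 86.6% of cells, and the CD4 tag by 2.90% and 13.4%. Whether this bears on the levels in cluster 5 was not tested. With the clusters weighted equally, the log2 ratios of Eomes, Tbx21 and Il18rap fell below 0, to -0.26, -0.47 and -0.36. With each library clustered on its own, which left 232 CD8-like cells under the KO label, that of Xcl1 was -0.37.

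Il18r1 was higher under the KO label in each of the 3 larger CD8-like clusters. It was at 405 and 105.5 CPM in cluster 0, a ratio of 3.84, at 641 and 311 CPM in cluster 3, a ratio of 2.06, and at 662 and 253 CPM in cluster 5, a ratio of 2.61. Over both CD4-like and CD8-like cells its log2 ratio stayed between 0.89 and 2.09 in all alternatives tried. Il18rap did not follow it. That gene was at 166 and 139 CPM in cluster 3, and at 466 and 674 CPM in cluster 5, lower under the KO label. Il12rb2 was lower under the KO label in cluster 0, at 80.6 and 156 CPM, near equal in cluster 3, at 325 and 306 CPM, and higher in cluster 5, at 1142 and 748 CPM.

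Ifng had 0 UMIs in cluster 0 under both labels. In cluster 3 it gave 59 UMIs under the KO label and 5 under the WT label, 55.3 and 6.71 CPM, a ratio of 8.25 (3.34 to 26.3), but 59.3% of the UMIs under the KO label came from 5 cells. In cluster 5 it was at 174 and 100.3 CPM, a ratio of 1.73, but a UMI of it was seen in 26.1% and 26.9% of cells. There 5 cells gave 59.6% of its UMIs under the KO label and 28.1% under the WT label. The Ifng level was thus higher under the KO label in both clusters that held any sizeable count of it, and unevenly spread over cells. In cluster 5 the share of cells with an Ifng UMI was not higher.

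Tbx21 and Eomes were lower under the KO label in cluster 5 and differed little in cluster 3. Tbx21 was at 96.6 and 67.1 CPM in cluster 3, a ratio of 1.44 (1.02 to 2.06) with 21 of the 103 UMIs under the KO label from 1 cell, and at 166 and 294 CPM in cluster 5, where the ratio was 0.57 (0.40 to 0.79). Eomes was at 87.2 and 69.7 CPM in cluster 3, a ratio of 1.25 (0.88 to 1.79), in 28.5% and 30.3% of cells. In cluster 5 it was at 70.2 and 123 CPM, a ratio of 0.57 (0.32 to 0.96). Xcl1 was at 62.8 and 17.4 CPM in cluster 3 and at 14.8 and 49.3 CPM in cluster 5, where 1 cell gave 20 of the 28 UMIs under the WT label. Ifng UMIs were seen in 20.7% of CD8-like cells with a Tbx21 UMI and 6.64% of those without one under the KO label, and in 18.7% and 1.92% under the WT label. These shares pool all CD8-like clusters and were not separated from cluster makeup. Cluster 0 had 0 Ifng UMIs under both labels, and 0 and 9 UMIs of Tbx21.

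**Figure D3:**
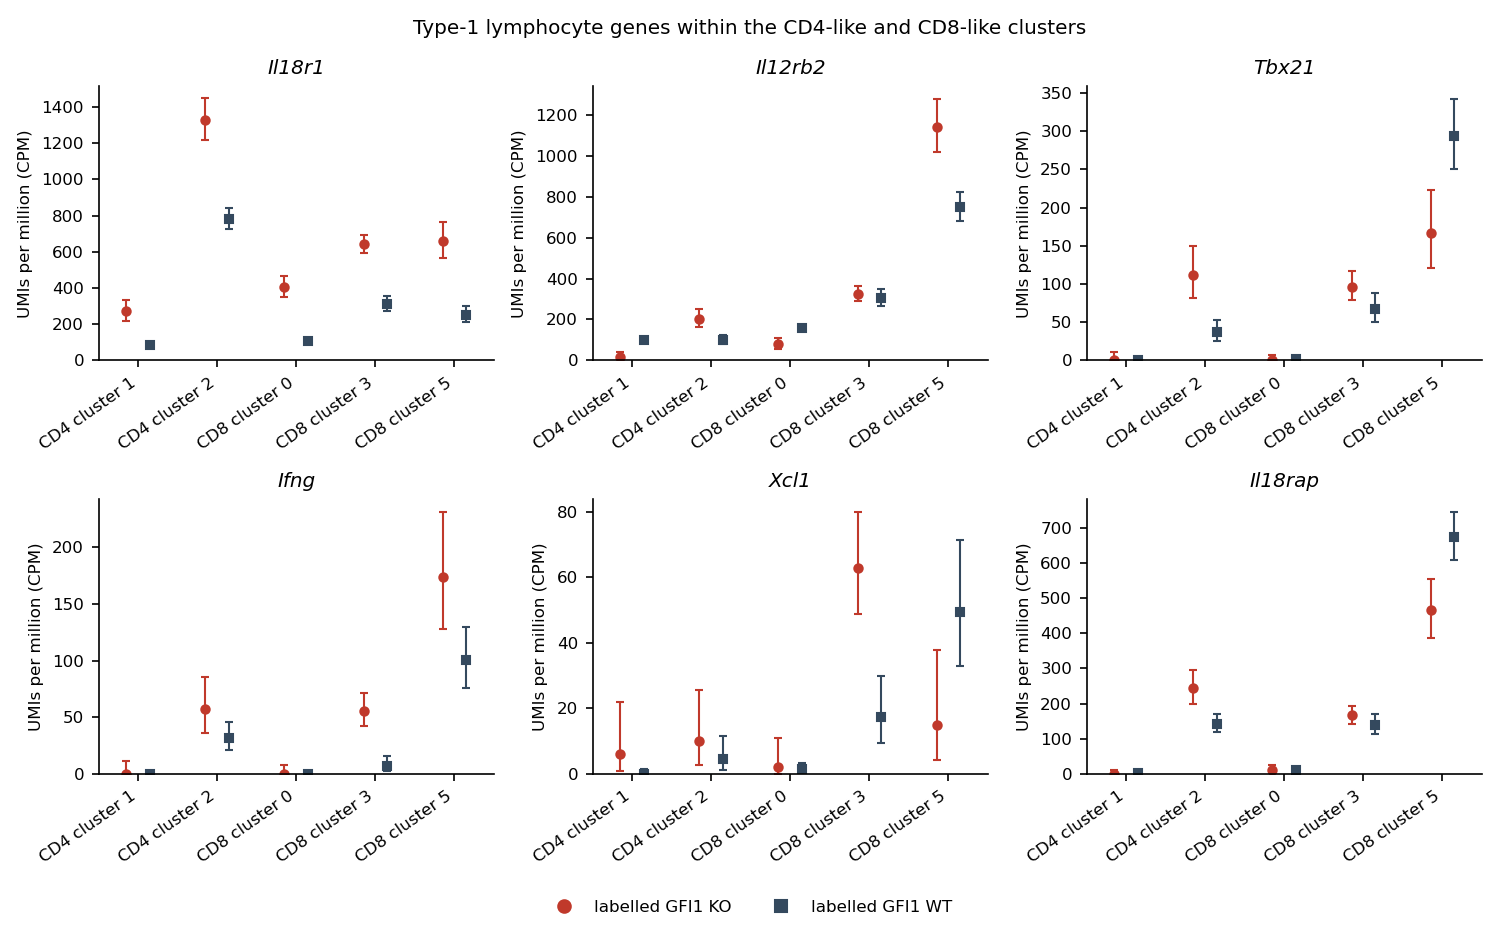
Levels in CPM (y axes, from 0, a separate scale for each gene) of Il18r1, Il12rb2, Tbx21, Ifng, Xcl1 and Il18rap in the 2 CD4-like and 3 larger CD8-like clusters; red circles are the library labelled GFI1 KO, dark squares that labelled GFI1 WT, and bars exact 95% Poisson intervals (counting error only). Il18r1 is higher under the KO label in all 5 clusters, while Tbx21, Xcl1 and Il18rap are lower there in CD8 cluster 5.

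In NK-like cells, no gene of the 8 was past 2-fold, and the genes split in direction. Ifng was higher under the KO label, with 208 and 846 UMIs, 203 CPM (177 to 233) and 108 CPM (101 to 115), which is a ratio of 1.89 (1.61 to 2.20). A UMI of it was seen in 34.9% and 19.7% of cells, and in 19.1% and 11.01% after thinning. Tbx21 was lower, with 276 and 4193 UMIs, 269.95 CPM (239 to 304) and 534 CPM (518 to 550), which is a ratio of 0.51 (0.45 to 0.57). A Tbx21 UMI was seen in 60.6% and 73.7% of NK-like cells, and in 31.8% and 50.004% after thinning.

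Eomes did not differ with Tbx21. It was at 385 and 380 CPM, a ratio of 1.02 (0.91 to 1.13), and both factors were seen together in 47.7% and 48.8% of cells. Xcl1 was at 245 and 212 CPM, a ratio of 1.16 (1.01 to 1.33). However, 1 cell gave 43 of its 251 UMIs under the KO label, and 1 cell gave 64 of 1661 under the WT label. The 5 cells with the most UMIs held 37.5% and 10.8% of them, so a higher Xcl1 level was not shown beyond a few cells. The receptor genes other than Il12rb1 were at high levels under both labels. Il12rb2 was at 1979.7 and 2493 CPM, a ratio of 0.79 (0.76 to 0.83), and was seen in 97.2% and 98.3% of cells. Il18r1 was at 834 and 647 CPM, a ratio of 1.29 (1.198 to 1.39), and Il18rap at 781 and 1201 CPM, a ratio of 0.65 (0.60 to 0.70). The 2 chains of the IL-18 receptor thus differed in opposite directions, and 76.1% and 70.4% of NK-like cells held UMIs of both. Il12rb1 gave 6 and 72 UMIs, 5.87 and 9.17 CPM, a ratio of 0.64 (0.23 to 1.46). With cells classed by the markers of single cells, the log2 ratio of Tbx21 passed 2-fold, at -1.34, and those of Xcl1 and Il18r1 turned, to -0.14 and -0.041.

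An antibody tag and the makeup of the NK-like cells also differed between labels. The NK1.1 antibody tag was carried by 89.9% of them under the KO label and 47.4% under the WT label. It was also on 16.4% and 1.57% of endothelial-like cells, and on 1.43% and 1.70% of alveolar macrophage-like cells. The part of such background in the difference between NK-like cells was not tested. Clustered again on their own, 197 of the 218 cells under the KO label fell into sub-cluster 4, led by Capg and Scart1, which held 8 of the 2036 cells under the WT label. In that sub-cluster Tbx21 was at 265 CPM (233 to 299.7) in the KO-labelled and 272 CPM (145 to 466) in the WT-labelled library. Il18r1 was at 833 CPM (775 to 893) and 335 CPM (192 to 544) there. Ifng was at 192 and 105 CPM, Il12rb2 at 1996 and 2074 CPM and Il18rap at 774 and 901 CPM, each with overlapping intervals. Of those 8 cells under the WT label, 25% carried the NK1.1 tag and 12.5% were called doublets. The tag was on 92.4% of the 197 cells under the KO label. In the 4 sub-clusters with at least 400 cells under the WT label, Tbx21 was between 402 and 627 CPM. One of these, with 404 cells, was led by Chil3 and Ccl6, genes of alveolar macrophages. Their part in the ratios was not tested.

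Among the WT-labelled NK-like cells the genes varied between sub-clusters. Ifng was at 360 CPM in sub-cluster 6, led by Cxcl10 and Gadd45b, and between 77.0 and 139 CPM in the 4 large sub-clusters. Xcl1 was at 41.2 CPM in sub-cluster 3, led by haemoglobin genes and Cx3cr1, and at 1158 CPM in sub-cluster 7, led by Inpp4b and Il7r. The 26 cells of sub-cluster 7 had 73 UMIs of Tbx21 (575 CPM) and 2 of Eomes (15.8 CPM). Of the 5 cells under the KO label in sub-cluster 6, all had an Ifng UMI, 24 UMIs in all, of which 1 cell gave 18.

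Over the lung as a whole, Ifng, Tbx21, Eomes, Xcl1, Il12rb2 and Il18rap had their highest level in NK-like cells among the named types with at least 20 cells in both libraries. For Ifng, Tbx21, Eomes and Xcl1 the CD8-like cells came next under the KO label, with intervals below those of NK-like cells. Under the WT label the Trdc-positive cells came next for these genes, at 57.3, 86.0, 66.9 and 93.2 CPM. Their intervals also lay below those of NK-like cells. Outside lymphocytes, Il12rb2 was at 115 CPM (111 to 119) and 142 CPM (139 to 146) in alveolar macrophage-like cells. A UMI of it was seen in 53.3% and 60.3% of those cells, and in 14.3% and 17.0% after thinning. In dendritic-like cells it was at 64.7 and 75.9 CPM. Under each label the intervals of alveolar macrophage-like and dendritic-like cells did not overlap. Il12rb1 was low in all named types, with at most 9.17 CPM outside the γδ-like cells.

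The IL-18 receptor genes were more widely spread. Il18rap was at 605 and 869.7 CPM in the 19 and 15 basophil or mast-like cells, at 266 CPM in the 1514 neutrophil-like cells under the WT label and at 105 CPM in the 9 under the KO label. Among innate lymphoid-like cells it was at 479.5 CPM in 9 cells under the KO label and 172 CPM in 153 cells under the WT label. Il18r1 was at 356 and 421 CPM in basophil or mast-like cells, and at 15.9 CPM in neutrophil-like cells under the WT label. Neutrophil-like cells were thus high in the accessory chain and low in the binding chain.

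**Figure D4:**
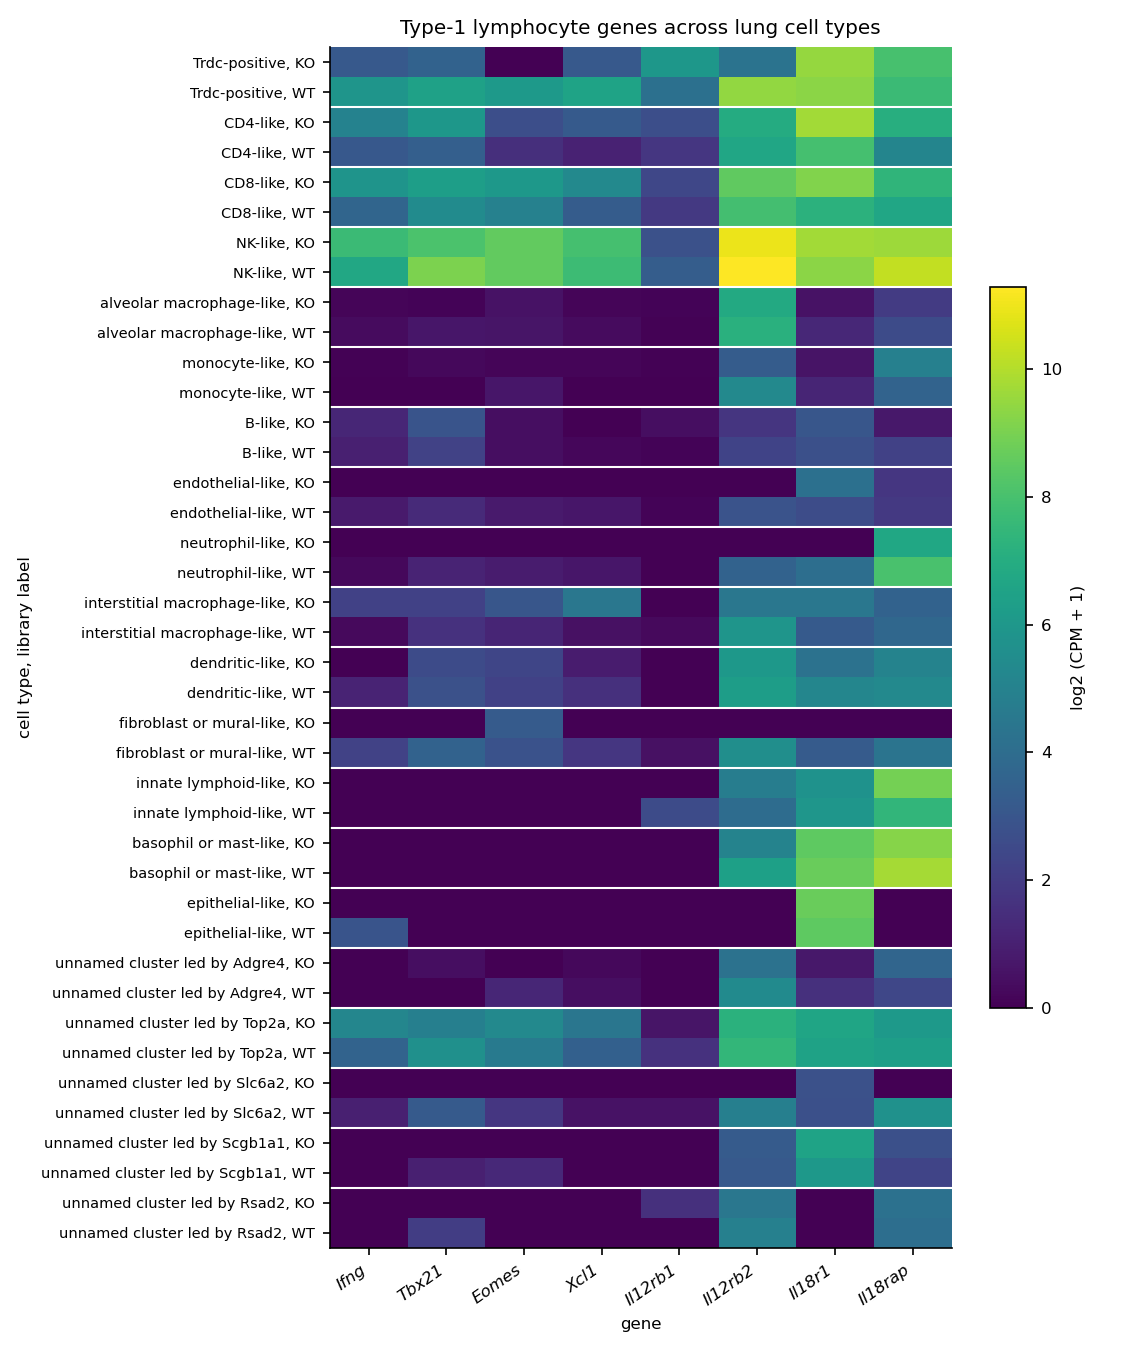
Level of each of the 8 genes (columns), as log2 of CPM plus 1 (colour), in each lung cell type in both libraries (rows, label given after the type; types with at least 3 cells in both libraries). NK-like rows are the brightest for Il12rb2, at 1979.7 and 2493 CPM, and Il18rap is bright in basophil or mast-like and neutrophil-like rows as well.

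The genes of the ligands were found in other cells of the same libraries. Il12b, which encodes the chain shared by IL-12 and IL-23, was at 152.5 and 277 CPM in dendritic-like cells. Il12a, the other chain of IL-12, was at 24.9 and 13.9 CPM in B-like cells and at 4.97 and 9.39 CPM in dendritic-like cells. Il18 was at 549 and 504.5 CPM in alveolar macrophage-like cells. Il15, a cytokine that maintains NK cells, was at 467 CPM in neutrophil-like cells under the WT label, and Il27 at 14.3 and 17.8 CPM in an unnamed cluster led by Adgre4. Il18bp, a secreted inhibitor of IL-18, was at 12.2 and 17.6 CPM in endothelial-like cells. Xcr1, the receptor gene for XCL1, was at 123.5 and 104 CPM in dendritic-like cells.

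Of 30 other genes of the pathway, 20 had enough UMIs in Trdc-positive cells, and 5 were past 2-fold higher and 9 lower under the KO label, beside 12.1% and 12.8% of all genes. Among signalling genes, Stat4 was at 845 and 1895 CPM and Jak2 had a ratio of 0.33 (0.22 to 0.49). Ccl5, a chemokine of type-1 lymphocytes, was at 319 and 4258 CPM. Cxcr3, Il2rb, Irf1 and Ifngr1 were also lower, with ratios from 0.27 to 0.47. The genes higher under the KO label were Zeb2, at 943 and 62.1 CPM, Prdm1, with 32 UMIs against 1, Cxcr6, at 1413 and 205 CPM, Bhlhe40, with a ratio of 2.38, and Il27ra, with 2.26. Zeb2, Prdm1 and Bhlhe40 encode transcription factors of effector lymphocytes, and Cxcr6 a chemokine receptor of cells resident in tissue.

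In CD4-like cells 24 of the 30 had enough UMIs, and 9 were higher and 1 lower under the KO label, beside 4.48% and 4.8% of all genes. Among those higher, the chemokine and chemokine receptor genes Ccl5, Cxcr6, Cxcr3 and Cx3cr1 had ratios of 4.52, 4.36, 4.05 and 2.32. Zeb2, Il2rb, Bhlhe40 and Tnf had ratios of 3.59, 2.91, 2.64 and 2.53, and Ifngr2, a chain of the interferon-γ receptor, was lower with a ratio of 0.49. In CD8-like cells 26 had enough UMIs, and 4 were higher and 1 lower, beside 2.94% and 3.45% of all genes. Cxcr3, Cxcr6 and Ccl5 were among the higher ones, with ratios of 3.36, 2.63 and 2.36, while Ifngr2 was lower with a ratio of 0.41. Ccl5 was also among the markers used to name the CD8-like clusters, so its level there is not independent of the class. In NK-like cells 25 had enough UMIs and 2 were counted as lower, beside 7.34% of all genes, a share close to that of the list. These were Zeb2, at 484 and 1004 CPM, and Cxcr6, with 0 and 38 UMIs. For Cxcr6 the limit of 3 counts puts it at least 1.65-fold lower, so that a 2-fold difference was not shown. The median log2 ratio of the pathway genes, with 0.5 UMIs added, was -0.32 in Trdc-positive, 0.88 in CD4-like, 0.35 in CD8-like and -0.21 in NK-like cells.

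**Figure D5:**
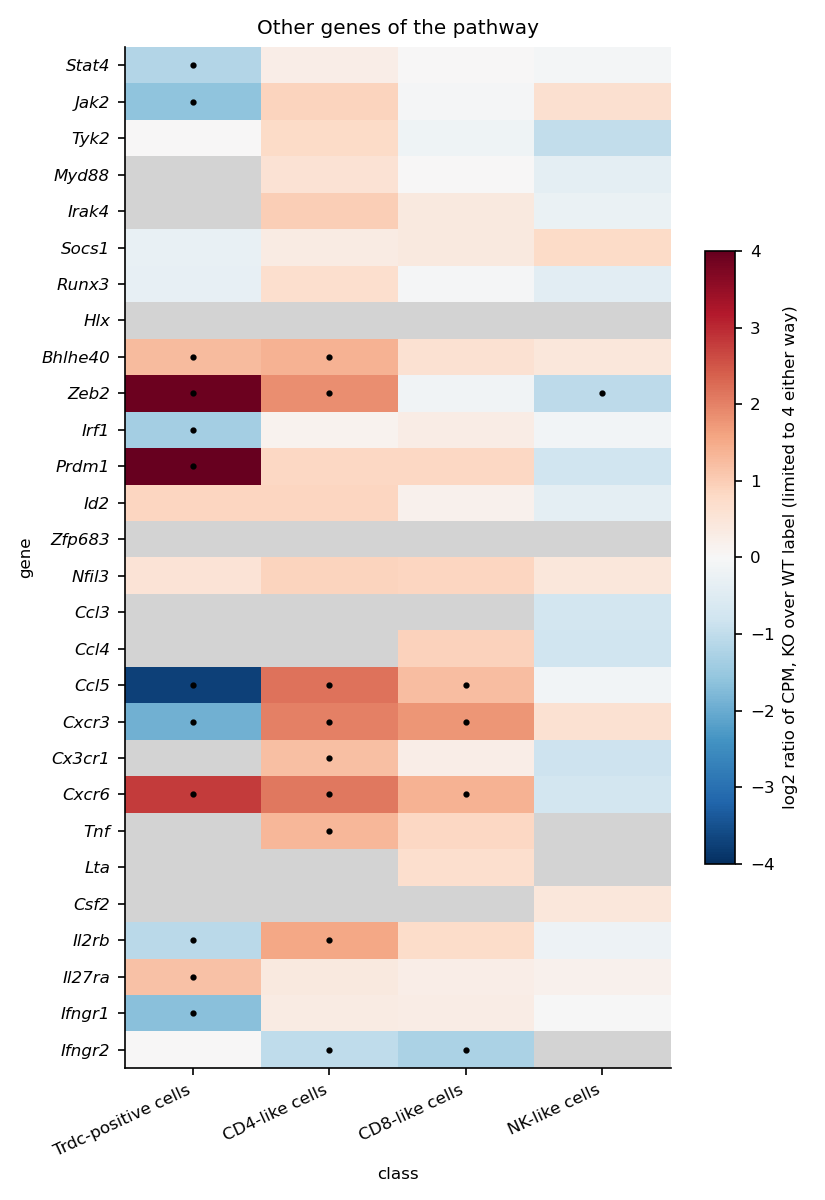
Log2 ratio of CPM under the KO label over the WT label (colour, limited to 4 either way) for other genes of the pathway (rows) in Trdc-positive, CD4-like, CD8-like and NK-like cells (columns); black dots mark ratios past 2-fold, grey cells hold under 30 UMIs over both libraries, and Cxcr6 in NK-like cells is drawn at its bound. Zeb2 is red in Trdc-positive cells, at 943 against 62.1 CPM, and blue in NK-like cells, at 484 against 1004 CPM.

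For each of the 8 genes, the 3 genes with the most similar levels over 11 cell types in both libraries (22 points, Pearson's r of log2 of CPM plus 1, among 14589 genes) were listed as a description, since the points share libraries and depth. Ifng was nearest to Fasl (0.96), Tbx21 (0.96) and Ctsw (0.95), and Tbx21 to Prf1 (0.96), Ifng (0.96) and Fasl (0.95). Eomes was nearest to Cldnd2, Klre1 and Samd3, and Xcl1 to Samd3, Klrc1 and Klre1. Il12rb2 was nearest to Nabp1 (0.90), Itpk1 and Nptn, and Il12rb1 to Trdc (0.95), Acsbg1 and Trgc4. Il18r1 was nearest to Cd247 (0.97), Sh2d2a and Txk, and Il18rap to Klrk1 (0.95), Cst7 and Gzmb. Because the Trdc-positive cells were picked by a Trdc UMI, any gene high in them lies near Trdc by the way the class was made. Klre1, Prf1 and Txk were among the markers used to name the NK-like cells. Among pairs of the 8 genes, Ifng with Tbx21 had the highest r, 0.96, and Eomes with Il12rb1 the lowest, 0.47.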

How the data were processed

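The authors deposited, for each of the 2 libraries, the raw UMI counts of genes and antibody tags in each called cell; the submitters' processing notes name Cell Ranger 9.0.1 and the build GRCm39 (mm39). The genes and lists were chosen with earlier results of these data known. Following the study's methods, cells needed at least 500 UMIs, 200 genes and at most 20% mitochondrial UMIs, which kept 10495 and 19342 of them, and 9538 ribosomal, mitochondrial and Gm- genes (18.9% and 16.4% of UMIs) were left out of all totals. Cells of both libraries were clustered together without batch correction (scanpy 1.11.5 under Python 3.11.15, leidenalg 0.10.2; 2000 variable genes, chosen with loess in R 4.3.3, 50 components, 15 neighbours, resolution 0.8), with the 8 genes, the pathway list and Gfi1 withheld. Clusters with a Cd3e UMI in at least 30% of cells, 933 and 2958 cells, were clustered again into 19 clusters, of which 10 (182 and 589 cells) stayed unnamed. Names needed 3 markers raised 1.5-fold, and Ccl5 of the pathway list was among the CD8 markers. These naming rules, the 30 UMIs of a positive tag, the NK sub-clusters and the Foxp3 split were chosen after seeing the data.

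Doublets, called by Scrublet for 3.30% and 5.88% of cells, were kept. Levels are the summed UMIs of a gene over those of its class and library (CPM, with exact Poisson intervals); ratios have exact conditional binomial intervals and shares Clopper-Pearson ones. Alternatives used edgeR 4.0.16 and DESeq2 1.42.0 for scaling factors only, with no test. On simulated Poisson counts with the real means, 4-fold changes were recovered in 98.97% to 100% and 3-fold ones in 93.7% to 100%, by class. Unchanged genes were called in 0.79% to 2.48%. The simulation held no spread between cells, clusters or mice, so these shares do not give the rate of false calls in the real data. Named genes were the 8 genes, the 30 pathway genes, ligands, factors of other programs, Gfi1 and the 3 nearest genes by correlation. Some genes of these lists are counted in the totals but their own results are not reported here.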

Additional observations from a re-analysis of the deposited data

Results flagged for a closer look

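Among ratios that rest on at least 30 UMIs, 4 of the 8 genes had ratios in opposite directions in different classes under the KO label against the WT label, each with an interval that does not hold 1. The differences between classes were not tested, since each class comes from the same pair of libraries. The log2 ratio of Tbx21 was -3.02 in Trdc-positive cells and -0.98 in NK-like cells, against 2.66 in CD4-like and 0.88 in CD8-like cells. For Xcl1 it was -3.55 in Trdc-positive cells, 2.12 in CD8-like and 0.21 in NK-like cells. For Il12rb2 it was -5.24 in Trdc-positive cells and -0.33 in NK-like cells, against 0.62 in CD8-like cells. For Il18rap it was -0.62 in NK-like cells, 1.96 in CD4-like and 0.73 in CD8-like cells. Some of these signs turned under alternatives. In CD8-like cells Tbx21 was at -0.47 and Il18rap at -0.36 with clusters weighted equally, and Xcl1 at -0.37 with the libraries clustered separately. Xcl1 in NK-like cells was at -0.14 with classes from markers of single cells. In the reported class, 1 cell gave 43 of the 251 Xcl1 UMIs of NK-like cells under the KO label.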

How the results depend on the processing

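With 1 library per label, no value has a spread between animals. Few UMIs limit Il12rb1 in every class and Ifng and Eomes in Trdc-positive cells, and ratios over a class mix cluster makeup with level. No paired analysis was possible because each label has 1 library and no test was made. Over 26 ratios and 346 alternative values, 287 stayed within the interval of the reported ratio, 57 moved outside it and 2, both of genes past 2-fold, changed sign; the other changes of sign were in ratios under 2-fold. Of 64 shares of cells, 50 left their interval when cells were thinned. The cause of the moves was not tested. Values below are log2 ratios, and counts are of genes past 2-fold.

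With the clusters of a class weighted equally, the ratios in CD8-like cells were -0.26 for Eomes (a change of sign), 1.10 for Ifng, -0.47 for Tbx21, 0.22 for Xcl1, 0.35 for Il12rb2, 1.35 for Il18r1 and -0.36 for Il18rap, with 2 of the 8 genes and 2 pathway genes past 2-fold. In CD4-like cells they were 0.84 for Ifng, 1.53 for Tbx21, 0.89 for Il18r1 and 0.77 for Il18rap, with counts of 1 and 2. This could not be computed for Trdc-positive or NK-like cells, which have fewer than 2 clusters with at least 10 cells in both libraries. When the libraries were clustered separately, the ratios in CD8-like cells were -0.37 for Xcl1 (a change of sign), 0.50 for Tbx21 and 0.23 for Eomes, with 2 of the 8 genes past 2-fold. Il12rb2 was then at -7.59 in Trdc-positive cells and Il18r1 at 1.49 in CD4-like cells, and NK-like cells gave 0.64 for Ifng, -0.23 for Eomes, -0.59 for Il12rb2, 0.17 for Il18r1 and -0.88 for Il18rap, with 1 gene past 2-fold.

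With classes from antibody tags, CD4-like cells gave 1.55 for Tbx21, -0.45 for Il12rb2, 1.48 for Il18r1 and 0.77 for Il18rap, with 3 pathway genes past 2-fold, and CD8-like cells 0.46 for Eomes, 1.22 for Xcl1, 0.28 for Il12rb2 and 1.67 for Il18r1. With classes from markers of single cells, Trdc-positive cells gave -3.86 for Il12rb2 and 0.49 for Il18r1, with 7 pathway genes past 2-fold. CD4-like cells gave 1.57 for Tbx21, 1.46 for Il18r1 and 0.85 for Il18rap, with 3 pathway genes, and CD8-like cells 0.57 for Eomes, 1.29 for Xcl1, 0.38 for Il12rb2 and 1.77 for Il18r1. NK-like cells gave -1.34 for Tbx21, -0.26 for Eomes, -0.14 for Xcl1, -0.76 for Il12rb2, -0.041 for Il18r1 and -1.05 for Il18rap, with 2 of the 8 genes past 2-fold.

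At resolution 0.5, Trdc-positive cells gave -1.32 for Tbx21 and -2.67 for Il12rb2, with 9 pathway genes past 2-fold, and CD8-like cells 0.50 for Tbx21, 0.33 for Eomes, 0.25 for Xcl1 and 0.87 for Il12rb2, with counts of 2 and 9. At resolution 1.2, CD8-like cells gave 2.74 for Xcl1 and 2.09 for Il18r1. With the 8 genes allowed among the variable genes, Xcl1 in CD8-like cells was at 2.97. With all γδ-like cells, Il12rb2 was at -3.35. Without called doublets, Il12rb2 in CD4-like cells was at -0.13, and without cells with a Foxp3 UMI, an alternative chosen after seeing the data, Il18rap there was at 2.46. In NK-like cells, Il12rb2 was at -0.26 with edgeR's TMM and also with DESeq2's size factors, each with 1 pathway gene past 2-fold, and at -0.43 with the total of all gene UMIs, a scaling that moved the median of all genes to -0.13 in CD8-like and -0.17 in NK-like cells. That scaling and the mean over cells each put 1 of the 8 genes past 2-fold in NK-like cells. A minimum of 10 UMIs gave 7 of the 8 genes in CD4-like and 4 pathway genes in NK-like cells.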
